A study of Mus musculus with 8 samples.

Results

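The 10 genes described here encode subunits of the transcription factor NF-κB (Nfkb1, Nfkb2, Rela, Relb), inhibitors and other feedback regulators that NF-κB induces (Nfkbia, Nfkbie, Nfkbiz, Tnfaip3, Birc3), and an IKK-related kinase (Ikbke). They were chosen by name, from the gene symbols of the deposited tables, with earlier results of these data known. They are 10 of the 28712 genes listed in at least 1 of the 2 tables. Each symbol stood on a single row, and all 10 genes were expressed highly enough to be tested.

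RNA was sequenced from 4T1 cells, a mouse mammary tumour line used as a model of triple-negative breast cancer, which were grown throughout at 1% O2. The cells received 0.5 μg/ml of a purified single-domain antibody (sdAb). The antibody was either sdAb#07.81, which was selected for binding the stress-response protein NUPR1, given for 24 h or 48 h, or the control antibody sdAb-Con, given for 48 h. The antibody proteins carry a Flag tag, the degron of ornithine decarboxylase, the cell-penetrating Tat peptide and a His tag, and the model is 1 cell line given purified protein. The labels call this a treatment, and the study's methods call it a transfection. Each of these 3 groups had 2 libraries, and the labels do not say whether these came from separate cultures, so p-values measure the spread between libraries, which may be technical. Untreated cells formed a further group, which was not analysed here.

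NF-κB proteins are held in the cytoplasm of resting cells by inhibitors of the IκB family. Signals from cytokine and pattern-recognition receptors activate the IKK kinase complex, IκB proteins are degraded, and the released dimers switch on inflammatory and survival genes. Several of these target genes encode the inhibitors themselves, which closes a negative feedback loop, and mammary tumour cells are known to use the pathway for cytokine secretion and survival.

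NF-κB binds target genes at a short motif, often near the start of transcription. The sequences before the RefSeq gene starts (build GRCm38.p6) were therefore searched on both strands for the consensus known as the κB site. Windows were 300 bases long, with 250 bases before the start and 50 after it, and 7 of the 10 genes had 1 or more windows. At least 1 match was present for 4 of these 7 genes, Nfkbia, Tnfaip3, Nfkb2 and Nfkbie. Counted by window, 6 of the 10 windows of the 7 genes and 8.46% of all 32851 windows held a match. The 10 genes include some chosen because NF-κB induces them. Several of the windows with a match belong to Nfkb2 alone, and windows of 1 gene may overlap. No conclusion is therefore drawn from these shares. The stretches shown are 60 bases long, read 5′ to 3′ on the strand of the gene, with the matched bases in capitals. They are shown because each carries the match nearest before the start in its window. For Nfkbia, Tnfaip3 and Nfkb2 they end at the base before the start, and for Nfkbie they end at position -61.
Nfkbia, chr12:55492648-55492707, minus strand: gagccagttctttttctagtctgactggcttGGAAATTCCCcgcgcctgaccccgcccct
Tnfaip3, chr10:19015411-19015470, minus strand: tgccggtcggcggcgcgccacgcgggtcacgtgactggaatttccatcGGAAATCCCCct
Nfkb2, chr19:46304677-46304736, plus strand: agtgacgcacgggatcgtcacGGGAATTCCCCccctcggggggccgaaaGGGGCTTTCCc
Nfkbie, chr17:45555580-45555639, plus strand: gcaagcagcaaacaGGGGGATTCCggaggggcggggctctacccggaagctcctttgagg

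The first run of capitals in Nfkb2 holds overlapping matches. The matches ended 20 bases before the start in Nfkbia, 3 bases before it in Tnfaip3, 2 bases before it in Nfkb2 and 97 bases before it in Nfkbie. Tnfaip3 had a further match ending at position -116 and a second window with none, and the other windows of Nfkb2 held matches too. The windows of Rela, Birc3 and Ikbke held no match, which says only that these letters were not in those windows. There was no window for Nfkb1, Relb and Nfkbiz.

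Values are normalized read counts, that is, reads of a gene in a library divided by the size factor of that library. The reads were worked out from the deposited mean counts. The libraries of a group are called library a and library b, and these letters carry no order and do not correspond to the replicate numbers of the labels. Reads per library ranged from 13804828 to 16993161 over the genes whose reads could be worked out. Markers of the mammary epithelial line were abundant in all 6 libraries, with a summed level of 37490 to 46760. Krt18 was the highest of them by its mean over the libraries. Of 10 immune cell markers, 1 reached a mean of 10, Cd68, and the others summed to between 13.5 and 20.7 in each library, with Ptprc at 0 in 4 of 6 and no higher than 4.3. Cd68 itself, a lysosomal protein gene, stood at 235 and 268 in sdAb#07.81 (24 h) and at 497 to 1034 in the 48 h libraries, and its part in the results was not tested.

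One library stood apart before any gene was compared. Between the 2 libraries of sdAb#07.81 (24 h), 97 genes were more than 2-fold apart among those above 50 normalized counts, against 26 in sdAb-Con (48 h) and 22 in sdAb#07.81 (48 h). Leaving out the highest of 7 fibroblast markers, Pdgfra, the summed level of the others was 51.2 in library b of sdAb#07.81 (24 h), 587 in library a of that group and 409 to 570 in the 48 h libraries. Pdgfra itself went the other way, with 1237 in library b and 949 in library a of sdAb#07.81 (24 h) and 605 to 650.1 in the 48 h libraries, so it was higher in both 24 h libraries. The part of these markers in the results was not tested, and values without library b are given wherever they move a call.

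Expression of the subunit genes differed between 48 h and 24 h of sdAb#07.81 for 2 of 4 members, both lower at 48 h, while 22.1% of all tested genes were called lower and 21.0% higher there. Nfkb1 and Rela stood higher at 24 h of sdAb#07.81 than in both 48 h groups, whereas Nfkb2 and Relb passed the test in no comparison. Differences are given on the log2 scale with their standard error (SE, n = 2 libraries per group), and a gene is called when its adjusted p from limma is below 0.05 over the 13876 genes tested.

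Nfkb1 (ENSMUSG00000028163, chr3:135290416-135397308, minus strand, as the tables list it) encodes the precursor of a DNA-binding subunit that pairs with Rela. Its normalized read counts were 1859.5 and 2000.4 in sdAb-Con (48 h), 3136 and 3492 in sdAb#07.81 (24 h), and 2215 and 1962 in sdAb#07.81 (48 h). Both 24 h libraries lay above all 4 of the 48 h libraries, and the 48 h groups overlapped. Nfkb1 was 1.59-fold lower at 48 h than at 24 h of sdAb#07.81, a log2 difference of -0.67 ± 0.112 (adjusted p = 9.3e-05, limma). Compared with sdAb-Con (48 h), sdAb#07.81 (24 h) was 1.72-fold higher, a log2 difference of 0.78 ± 0.112 (adjusted p = 1.2e-05, limma). Between the antibodies at 48 h the difference was 0.11 ± 0.114 on the log2 scale, with a 95% interval from -0.12 to 0.35. In bulk libraries such as these, less RNA per cell and fewer cells expressing a gene cannot be told apart.

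Rela (ENSMUSG00000024927, chr19:5687511-5698158, plus strand) encodes the main transactivating subunit. Its normalized read counts were 762 and 858 in sdAb-Con (48 h), 1293 and 1153 in sdAb#07.81 (24 h), and 824 and 804 in sdAb#07.81 (48 h). As for Nfkb1, both 24 h libraries lay above the other 4, and the 48 h groups overlapped. The log2 difference was -0.59 ± 0.122 for 48 h against 24 h of sdAb#07.81 (adjusted p = 7.4e-04, limma) and 0.60 ± 0.121 for sdAb#07.81 (24 h) against sdAb-Con (48 h) (adjusted p = 4.5e-04, limma). The second difference is 1.51-fold. Between the antibodies at 48 h the log2 difference was 0.01 ± 0.127, with a 95% interval from -0.25 to 0.28.

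Nfkb2 (ENSMUSG00000025225, chr19:46292759-46300824, plus strand) encodes the precursor subunit of the non-canonical branch, and Relb its usual partner. The normalized read counts of Nfkb2 were 3737 and 3900.4 in sdAb-Con (48 h), 3295 and 3508 in sdAb#07.81 (24 h), and 3092 and 3184 in sdAb#07.81 (48 h). The 3 groups did not overlap, with sdAb-Con (48 h) highest and sdAb#07.81 (48 h) lowest. The log2 difference between the antibodies at 48 h was -0.28 ± 0.104 with a 95% interval from -0.50 to -0.07, and it did not pass after adjustment (adjusted p = 0.0865, limma). The other log2 differences of Nfkb2 were -0.12 ± 0.104 between the times and -0.17 ± 0.104 for sdAb#07.81 (24 h) against sdAb-Con (48 h).

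Relb (ENSMUSG00000002983, chr7:19340142-19363363, minus strand) had normalized read counts of 465 and 519 in sdAb-Con (48 h), 502 and 503 in sdAb#07.81 (24 h), and 463 and 439 in sdAb#07.81 (48 h). The 2 lowest values were those of sdAb#07.81 (48 h), and the other groups overlapped. Its log2 differences ran from -0.16 ± 0.137 between the times to 0.03 ± 0.134 for sdAb#07.81 (24 h) against sdAb-Con (48 h), where the 95% interval was -0.25 to 0.31.

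**Figure D1:**
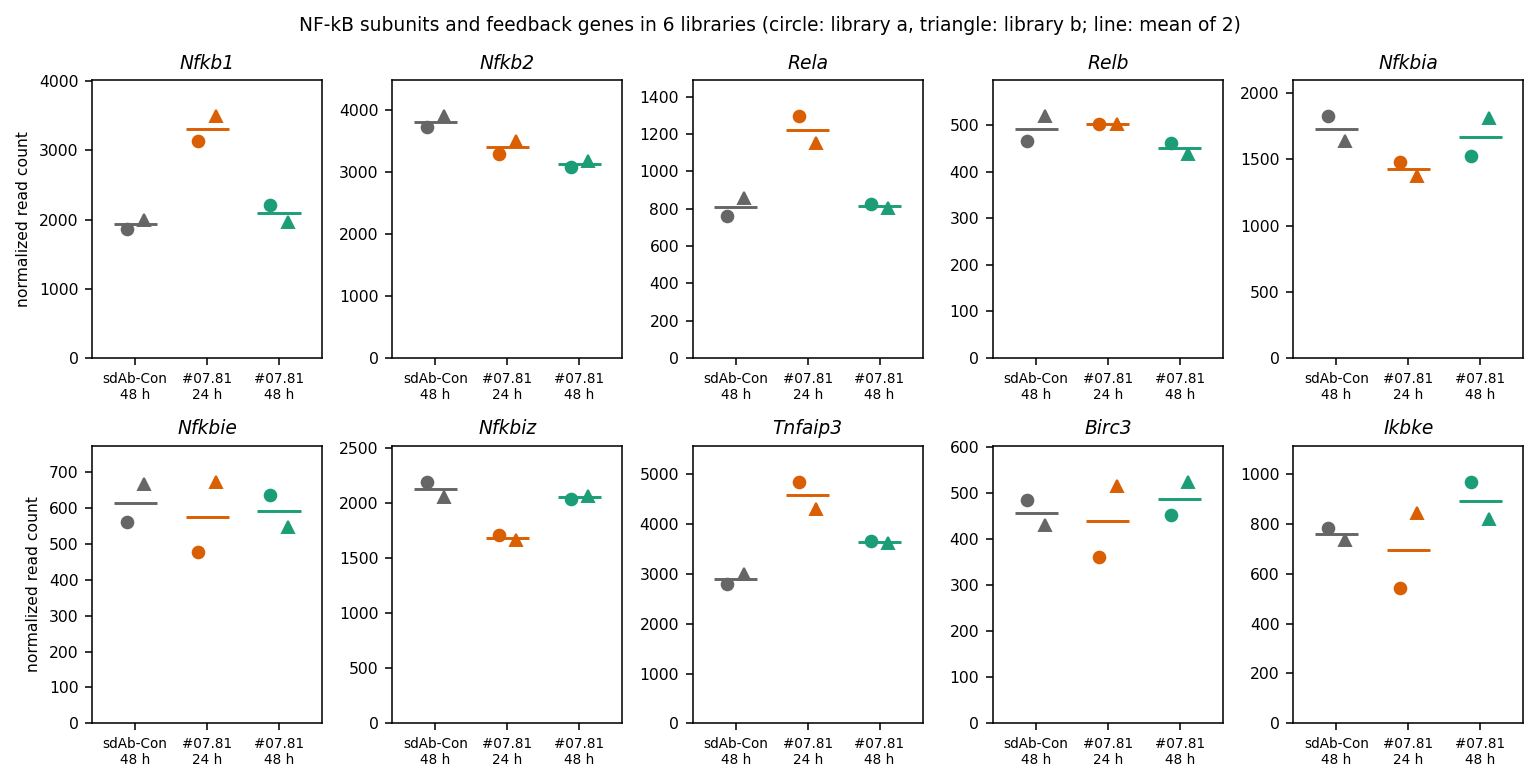
Normalized read counts (vertical axes, linear and starting at 0) of the 10 genes in the 6 libraries, grouped by antibody and time; circles are library a, triangles library b, and lines the mean of 2 libraries. Nfkb1, Rela and Tnfaip3 were highest in both 24 h libraries, Nfkbiz was lowest there, and Nfkbie, Birc3 and Ikbke had their widest gap between the 24 h libraries.

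Among the inhibitors, the members did not move in 1 direction. Tnfaip3 stood higher at 24 h of sdAb#07.81 than in sdAb-Con (48 h) and Nfkbiz stood lower, while Nfkbia and Nfkbie, which encode classical IκB proteins that hold NF-κB in the cytoplasm, passed the test in no comparison with all 6 libraries and the main scaling.

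Tnfaip3 (ENSMUSG00000019850, chr10:18876658-18891405, minus strand) encodes a ubiquitin-editing enzyme that ends signalling upstream of IKK. Its normalized read counts were 2799.8 and 2991 in sdAb-Con (48 h), 4847 and 4308 in sdAb#07.81 (24 h), and 3666 and 3614 in sdAb#07.81 (48 h). The 3 groups did not overlap, and sdAb#07.81 (48 h) lay between the others. The largest of its log2 differences was 0.66 ± 0.107, a 1.58-fold higher level in sdAb#07.81 (24 h) relative to sdAb-Con (48 h) (adjusted p = 4.6e-05, limma).

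From 24 h to 48 h of sdAb#07.81 the log2 difference of Tnfaip3 was -0.33 ± 0.106 (adjusted p = 0.0177, limma). This call was lost when library a of sdAb#07.81 (24 h) was left out (-0.25, adjusted p = 0.148, limma) or either library of sdAb#07.81 (48 h) (-0.34, adjusted p = 0.0577, and -0.32, adjusted p = 0.0788, limma), and it was kept without library b of sdAb#07.81 (24 h) (-0.42, adjusted p = 0.0122, limma). In the contrast of antibodies at 48 h, Tnfaip3 was 0.33 ± 0.107 higher on the log2 scale in sdAb#07.81, with a 95% interval from 0.11 to 0.56, and missed the threshold (adjusted p = 0.0554, limma). Tnfaip3 passed when either library of the 24 h group, which is not in that contrast, was left out, at a log2 difference of 0.33. It did not pass when a library of either group compared was left out (log2 differences of 0.28 to 0.38). It also did not pass with no minimum count (adjusted p = 0.101, limma). With the trend on length, GC content and mean count removed it stood at 0.16 (adjusted p = 0.54, limma). Of 14 alternatives, 5 gave a call and 9 did not.

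Nfkbiz (ENSMUSG00000035356, chr16:55631738-55659262, minus strand) encodes a nuclear IκB protein that promotes transcription of some secondary NF-κB targets. Its normalized read counts were 2195 and 2057 in sdAb-Con (48 h), 1711 and 1663 in sdAb#07.81 (24 h), and 2040.4 and 2067 in sdAb#07.81 (48 h). Both 24 h libraries lay below the other 4. The log2 difference was -0.33 ± 0.107 for sdAb#07.81 (24 h) against sdAb-Con (48 h) (adjusted p = 0.014, limma) and 0.28 ± 0.107 for 48 h against 24 h of sdAb#07.81 (adjusted p = 0.0392, limma). The second call was lost with upper-quartile scaling (adjusted p = 0.0556, limma), with no minimum count (0.0642) and with only the 2 groups compared (0.0517). It did not hold either when any 1 of the 6 libraries was left out (adjusted p = 0.0507 to 0.142, limma), at log2 differences of 0.26 to 0.30. The first was lost with upper-quartile scaling (-0.26, adjusted p = 0.0517, limma), without library a of sdAb-Con (48 h) (-0.29, adjusted p = 0.103, limma) and without library b of sdAb#07.81 (24 h) (-0.30, adjusted p = 0.063, limma). Both differences were under a fold of 1.5.

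Nfkbia (ENSMUSG00000021025, chr12:55536195-55539432, minus strand) had normalized read counts of 1824 and 1637 in sdAb-Con (48 h), 1478 and 1376 in sdAb#07.81 (24 h), and 1526 and 1812 in sdAb#07.81 (48 h). Both 24 h libraries were the lowest of the 6. The log2 difference of sdAb#07.81 (24 h) against sdAb-Con (48 h) was -0.28 ± 0.119, with a 95% interval from -0.53 to -0.03 (adjusted p = 0.0573, limma). It was called with total-read scaling (-0.32, adjusted p = 0.0278, limma) and with only the 2 groups compared (-0.29, adjusted p = 0.0461, limma). Between the times it was 0.22 ± 0.119, and between the antibodies at 48 h -0.06 ± 0.118 with an interval from -0.30 to 0.19.

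Nfkbie (ENSMUSG00000023947, chr17:45866629-45874095, plus strand) had normalized read counts of 561 and 668 in sdAb-Con (48 h), 478 and 673 in sdAb#07.81 (24 h), and 638 and 547 in sdAb#07.81 (48 h). All 3 groups overlapped, and the lowest and the highest value were the 2 libraries of sdAb#07.81 (24 h). Its log2 differences lay between -0.11 ± 0.158 and 0.06 ± 0.160.

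Birc3 (ENSMUSG00000032000, chr9:7848700-7873187, minus strand), which encodes a ubiquitin ligase of the TNF receptor complex that protects cells from death signalling, also passed in no comparison. Its normalized read counts were 484 and 432 in sdAb-Con (48 h), 362 and 516 in sdAb#07.81 (24 h), and 452 and 525 in sdAb#07.81 (48 h). The groups overlapped, and log2 differences lay between -0.09 ± 0.164 and 0.18 ± 0.164. Without library b of sdAb#07.81 (24 h) the difference between the times was 0.42 ± 0.172 and was called (adjusted p = 0.0482, limma), and without library a it was -0.09.

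Ikbke (ENSMUSG00000042349, chr1:131182080-131207344, minus strand) encodes an inducible kinase related to IKK that acts in both NF-κB and interferon signalling. Its normalized read counts were 783 and 734 in sdAb-Con (48 h), 544 and 844 in sdAb#07.81 (24 h), and 968 and 818 in sdAb#07.81 (48 h). The 24 h libraries lay 1.55-fold apart, the widest gap within a group among the 10 genes, and spanned the values of sdAb-Con (48 h). The log2 difference between the times was 0.40 ± 0.162 (adjusted p = 0.0551, limma). Without library b of sdAb#07.81 (24 h) it was 0.71 ± 0.157 (adjusted p = 5.4e-04, limma), without library a 0.07, and without library b of sdAb#07.81 (48 h) 0.52 (adjusted p = 0.0399, limma). For sdAb#07.81 (24 h) against sdAb-Con (48 h) the log2 difference of Ikbke was -0.17 ± 0.164, which became -0.47 ± 0.158 without library b (adjusted p = 0.0144, limma) and 0.16 without library a. The direction of Ikbke in that contrast changed with the 24 h library left out. With all 6 libraries, Ikbke was also called between the times with total-read scaling (0.44, adjusted p = 0.0377, limma), and in both contrasts with the trend on length, GC content and mean count removed (0.52, adjusted p = 0.0154, and -0.41, adjusted p = 0.0462, limma).

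**Figure D2:**
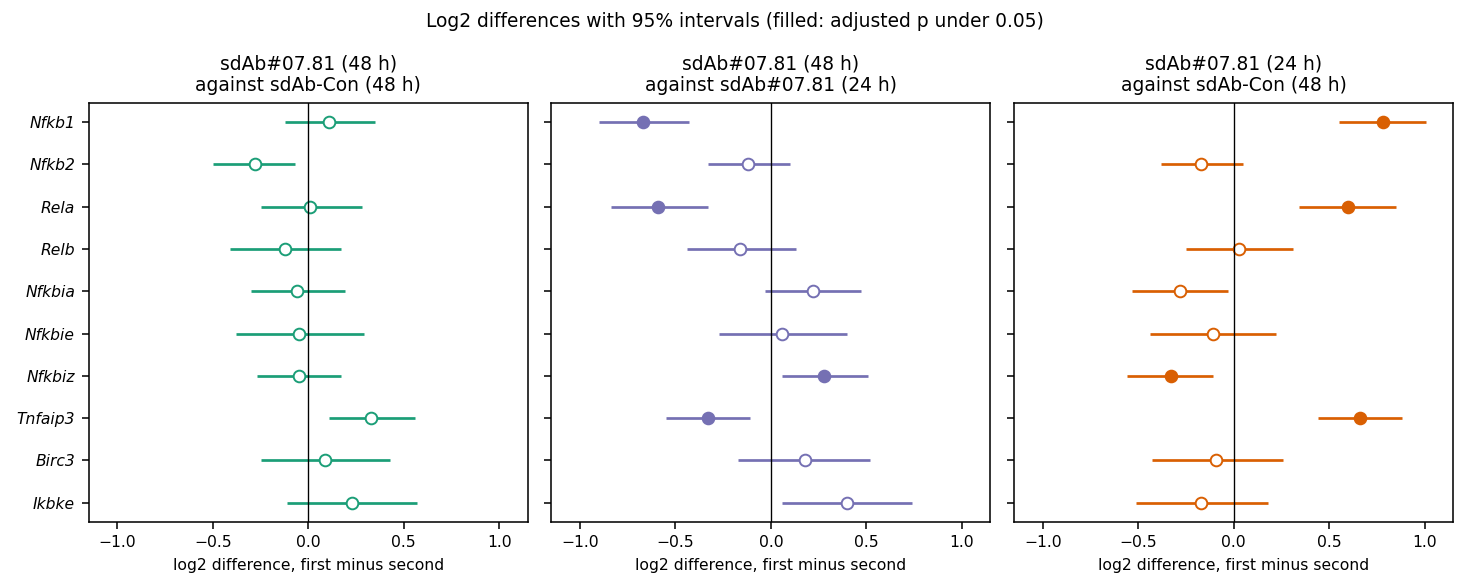
Log2 differences (horizontal axes, first group minus second) of the 10 genes in the 3 contrasts, with 95% intervals from limma; filled circles have an adjusted p below 0.05. No circle is filled between the antibodies at 48 h, and Nfkb1, Rela, Nfkbiz and Tnfaip3 are filled in both contrasts with sdAb#07.81 (24 h).

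The first deposited comparison asks how the antibodies differ at the same time. Of the 10 genes, 0 were called in either direction for sdAb#07.81 (48 h) against sdAb-Con (48 h) by limma with voom weights, and 0 by limma with an intensity trend. Unadjusted p was below 0.05 for 2 of the 10, Tnfaip3 and Nfkb2. Among all tested genes 6.41% were called higher and 3.53% lower. Log2 differences of the 10 ran from -0.28 to 0.33 with a median of -0.02, against a median of -0.02 over all tested genes. The 95% intervals of the 10 reached from -0.50 to 0.57, so the absence of a call does not show equal levels.

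The second deposited comparison sets 48 h of sdAb#07.81 against 24 h. There was no sdAb-Con library at 24 h, so antibody exposure and time in culture cannot be told apart in it. For sdAb#07.81 (48 h) against sdAb#07.81 (24 h), 1 of the 10 genes was called higher (Nfkbiz) and 3 lower (Nfkb1, Rela, Tnfaip3), while 21.0% of all tested genes were called higher and 22.1% lower. The median log2 difference was -0.03 for the 10 genes and -0.01 for all tested genes. With so many genes called, the number of members called was close to what the whole table gives. Without library b of sdAb#07.81 (24 h), 5 of the 10 were called, Birc3 and Ikbke higher and Nfkb1, Rela and Tnfaip3 lower, beside 5593 of 13839 tested genes, 2627 higher and 2966 lower. Without library a of that group, which held the lowest counts of Birc3 and Ikbke, 2 were called (Nfkb1 and Rela, both lower), beside 5128 of 13860 tested genes.

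The difference of the 2 comparisons is sdAb#07.81 (24 h) against sdAb-Con (48 h), in which antibody and time change together and cannot be told apart. There 3 of the 10 genes were called higher (Nfkb1, Rela, Tnfaip3) and 1 lower (Nfkbiz), beside 26.0% of all tested genes higher and 25.2% lower. The median log2 difference of the 10 was -0.10, and 0.00 over all tested genes. Without library b of sdAb#07.81 (24 h), 4 were called, with Ikbke in place of Nfkbiz among the lower, beside 6418 of 13839 tested genes, 3379 higher and 3039 lower. Without library a of that group, 4 were called too, Nfkbiz among them (adjusted p = 0.0344, limma), Ikbke stood at 0.16, and 6361 of 13860 tested genes were called. All 3 contrasts share libraries, so a gene that stands out in the 24 h libraries is called with opposite signs in the 2 contrasts that hold them.

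**Figure D3:**
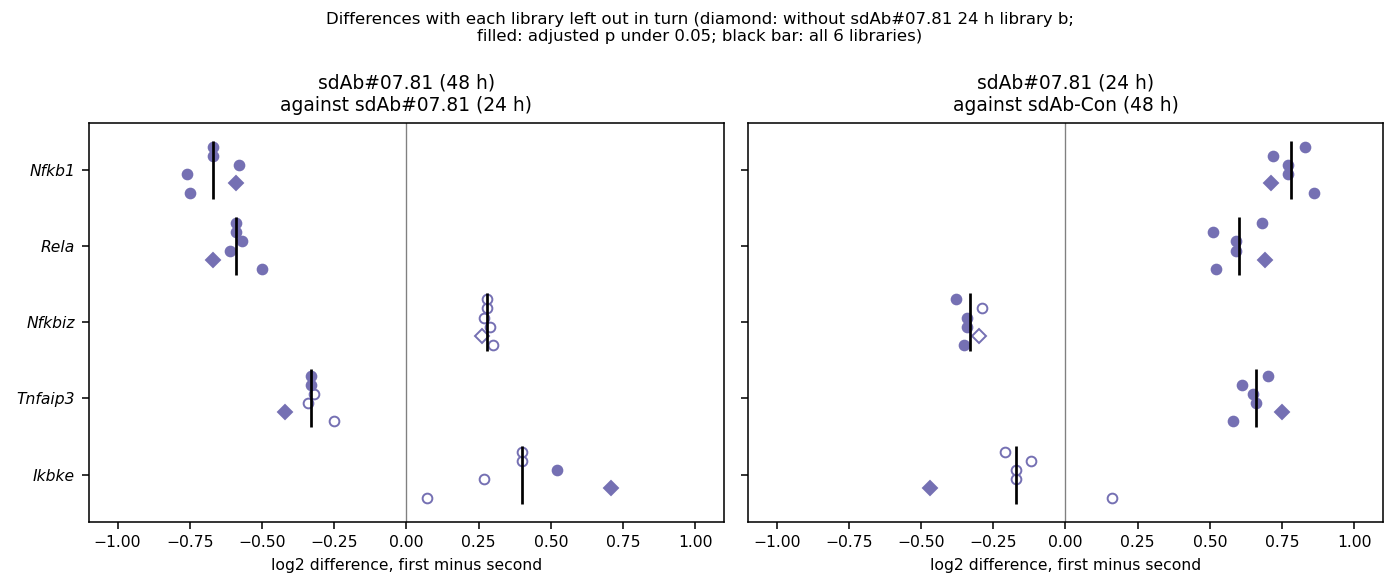
Log2 differences (horizontal axes) of 5 genes in the 2 contrasts that hold sdAb#07.81 (24 h), with each library left out in turn; black bars use all 6 libraries, diamonds leave out library b of sdAb#07.81 (24 h), and filled symbols have an adjusted p below 0.05. Nfkb1 and Rela were called in all 6 cases of both contrasts, whereas Ikbke moved from 0.07 to 0.71 in 48 h against 24 h of sdAb#07.81.

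Nfkb1 and Rela were called in both contrasts under all 14 alternatives tried, with log2 differences of -0.76 to -0.58 and -0.67 to -0.50 for 48 h against 24 h, and Tnfaip3 was called in all 14 for sdAb#07.81 (24 h) against sdAb-Con (48 h). Over 13716 genes, the log2 difference rose with transcript length in that contrast (Spearman's rho 0.326) and in sdAb#07.81 (48 h) against sdAb-Con (48 h) (0.447), and fell with it in 48 h against 24 h of sdAb#07.81 (-0.126), a description across genes that share the same libraries. Tnfaip3 has the longest transcript of the 10 (6199 bases) and Nfkbia the shortest (1578 bases). With the trend on length, GC content and mean count taken out, Tnfaip3 stood 0.40 higher in sdAb#07.81 (24 h) relative to sdAb-Con (48 h) (adjusted p = 0.00492, limma), 0.16 higher between the antibodies at 48 h and 0.24 lower at 48 h than at 24 h (adjusted p = 0.0743, limma). Under the same setting Nfkbia stood at 0.06 in place of -0.28, Nfkb1 at 0.66 and Rela at 0.71 for sdAb#07.81 (24 h) against sdAb-Con (48 h).

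Levels can be compared between genes only per length, and only roughly. The longest listed transcript of a gene, used here, need not be the one these cells express. Per 1000 bases of the longest transcript, the mean normalized read count over the 6 libraries was 1019.6 for Nfkbia, 898 for Nfkb2, 598 for Tnfaip3, 589 for Nfkb1 and 475 for Nfkbiz. Rela followed at 349, Nfkbie at 198, Birc3 at 159, Relb at 147 and Ikbke at 134. Tnfaip3 and Nfkb1 lay side by side in that order, as did Birc3 and Relb. The order pools the 3 groups and need not hold within each of them. In sdAb-Con (48 h), the mean of Nfkbiz was 2126.4 (4115 bases) and that of Nfkb1 was 1930.0 (4149 bases). Per length, Nfkbiz therefore stood above Nfkb1 in that group.

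Genes around the 10 members were taken from 5 lists of 69 genes, of which 68 were tested. The shares over all tested genes, to be read beside each of the list counts, were 6.41% higher and 3.53% lower between the antibodies at 48 h, 21.0% higher and 22.1% lower between the times, and 26.0% higher and 25.2% lower for sdAb#07.81 (24 h) against sdAb-Con (48 h). At 48 h, 6 were called higher and 3 lower in sdAb#07.81 relative to sdAb-Con. Between the times of sdAb#07.81, 15 were higher and 19 lower at 48 h, and 21 were higher and 14 lower in sdAb#07.81 (24 h) relative to sdAb-Con (48 h). In these latter contrasts the pooled share of list genes called was not far from that of all tested genes, but it varied between lists. Between the times it ran from 0.0% for the further family genes to 64.0% for the known NF-κB target genes. For sdAb#07.81 (24 h) against sdAb-Con (48 h) it ran from 36.4% for the receptors to 64.0% for the target genes.

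Of 11 receptors, 1 passed the test upward and 2 downward for sdAb#07.81 (48 h) relative to sdAb-Con (48 h). Tlr3, a sensor of double-stranded RNA, had normalized counts of 567 and 518 in sdAb-Con (48 h) and 944 and 937 in sdAb#07.81 (48 h), a log2 difference of 0.79 ± 0.135 (adjusted p = 0.00124, limma). Cd40, a receptor of the TNF family that feeds the non-canonical branch, differed by -0.85 ± 0.231 between the antibodies at 48 h (adjusted p = 0.0254, limma) and by -1.65 ± 0.258 for sdAb#07.81 (24 h) against sdAb-Con (48 h) (adjusted p = 3.2e-05, limma). Its mean normalized count was 141 in sdAb-Con (48 h), 45.2 in sdAb#07.81 (24 h) and 77.8 in sdAb#07.81 (48 h), so the 24 h group was the lowest. The call between the antibodies was lost without any 1 of the 4 libraries compared (log2 differences of -0.97 without library a of sdAb#07.81, -0.75 without library b of sdAb#07.81, -0.96 without library a of sdAb-Con and -0.76 without library b of sdAb-Con). Between the times, 3 receptors were higher and 3 lower at 48 h, and for sdAb#07.81 (24 h) against sdAb-Con (48 h), 2 were higher and 2 lower. Tlr4, the receptor of bacterial lipopolysaccharide, was 0.91 ± 0.133 higher on the log2 scale in the 24 h group there (adjusted p = 1.5e-05, limma).

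The list of the IKK complex and upstream signalling had 0 of 19 genes called between the antibodies at 48 h by limma with voom weights or with an intensity trend, and 4 had an unadjusted p below 0.05. For sdAb#07.81 (24 h) against sdAb-Con (48 h) 7 were higher and 2 lower (all tested genes, 26.0% and 25.2%), with a list median of 0.14 on the log2 scale, and between the times 2 were higher and 5 lower at 48 h, with a median of -0.17 (all tested genes, 21.0% and 22.1%). Ripk1, a kinase scaffold of the TNF receptor complex, had a mean normalized count of 371 in sdAb-Con (48 h), 737 in sdAb#07.81 (24 h) and 425 in sdAb#07.81 (48 h). Its log2 difference was 0.99 ± 0.139 for the 24 h group against sdAb-Con (48 h) (adjusted p = 1.0e-05, limma) and -0.79 ± 0.138 between the times (adjusted p = 1.3e-04, limma). Birc2, a paralog of Birc3, stood in the opposite direction, 0.63 ± 0.118 higher at 48 h than at 24 h (adjusted p = 2.9e-04, limma). The kinase subunits of IKK itself, named here after their values were seen, were higher in sdAb#07.81 (24 h) relative to sdAb-Con (48 h), by 0.42 ± 0.111 for Ikbkb (adjusted p = 0.00386, limma) and by 0.39 ± 0.123 for Chuk (adjusted p = 0.0118, limma). Ikbkg, the regulatory subunit of the same complex and also named after its values were seen, stood at -0.05 ± 0.115. It was not called (adjusted p = 0.738, limma). The call of Ikbkb was lost without library a of sdAb-Con (48 h) (0.36), and that of Chuk without library b of sdAb-Con (48 h) (0.35) or library a of sdAb#07.81 (24 h) (0.26).

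Of 4 further family genes, 0 were called between the antibodies at 48 h and 0 between the times by limma with voom weights or with an intensity trend, with an unadjusted p below 0.05 for 1 gene in each contrast. Rel, which encodes the c-Rel subunit, was 0.77 ± 0.148 higher on the log2 scale in sdAb#07.81 (24 h) relative to sdAb-Con (48 h) (adjusted p = 2.5e-04, limma), and Nfkbib, an IκB gene, differed by -0.47 ± 0.162 (adjusted p = 0.0213, limma). Rel was no longer called with the trend on length, GC content and mean count taken out (0.33, adjusted p = 0.0736, limma), and Nfkbib not without library a (-0.51) or b (-0.43) of sdAb-Con (48 h) or library b of sdAb#07.81 (24 h) (-0.40). A list named other inhibitors and deubiquitinases held 9 genes, not all of which are strictly either. In the same contrast 4 of them were higher and 0 lower by limma. Unadjusted p was below 0.05 for 6, and 4 were called by limma with an intensity trend. At 48 h against 24 h, 1 was higher and 4 lower. Zc3h12a, an RNase that degrades inflammatory transcripts, had a mean of 334 in sdAb-Con (48 h), 565 in sdAb#07.81 (24 h) and 330.1 in sdAb#07.81 (48 h), and its log2 difference was -0.78 ± 0.141 between the times (adjusted p = 2.1e-04, limma). N4bp1, a suppressor of NF-κB signalling, was the 1 gene of this list called between the antibodies at 48 h, at 0.54 ± 0.11 (adjusted p = 0.00484, limma), while limma with an intensity trend called 2. Its call was lost without library b of sdAb-Con (48 h) (0.52, adjusted p = 0.0625, limma) and without library a of sdAb#07.81 (48 h) (0.46, adjusted p = 0.129, limma).

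Of 25 known NF-κB target genes tested, 4 were higher and 1 lower between the antibodies at 48 h (all tested genes, 6.41% and 3.53%). At 48 h against 24 h of sdAb#07.81, 9 were higher and 7 lower (all tested genes, 21.0% and 22.1%), and in sdAb#07.81 (24 h) against sdAb-Con (48 h), 7 were higher and 9 lower (all tested genes, 26.0% and 25.2%). Chemokine genes went both ways from 24 h to 48 h. Ccl5 and Cxcl10 rose and Cxcl5 fell, as did Csf3, which encodes a granulocyte growth factor. Ccl5 differed by 2.54 ± 0.195 on the log2 scale between 48 h and 24 h (adjusted p = 7.3e-09, limma), Cxcl10 by 1.72 ± 0.196 (adjusted p = 1.2e-06, limma), Cxcl5 by -1.24 ± 0.133 (adjusted p = 5.7e-07, limma) and Csf3 by -1.59 ± 0.15 (adjusted p = 1.1e-07, limma). The other 4 chemokine genes of the list, named after their values were seen, differed by -0.68 for Cxcl1 (adjusted p = 7.6e-05, limma), -0.86 for Ccl2 (adjusted p = 0.0066, limma), 0.86 for Ccl20 (adjusted p = 0.0081, limma) and 0.66 for Cxcl2 (adjusted p = 0.24, limma). The call of Ccl2 was lost without library b of sdAb#07.81 (24 h) (-0.38) and that of Ccl20 without library a (0.25). At 48 h, Cxcl10 was 1.25 ± 0.186 higher with sdAb#07.81 relative to sdAb-Con (adjusted p = 4.4e-04, limma). The matrix metalloproteinase gene Mmp9 differed by -1.39 ± 0.208 there (adjusted p = 4.4e-04, limma), with normalized counts of 1691 and 1751 in sdAb-Con (48 h) and 782 and 547 in sdAb#07.81 (48 h). Il1b, an inflammatory cytokine gene, was near the detection limit, at 4.8 and 1.0 normalized counts in sdAb-Con (48 h) and 12.4 and 17.4 in sdAb#07.81 (48 h), and it was 1 of the 4 target genes called higher there (2.41 ± 0.623, adjusted p = 0.0195, limma). Without library b of sdAb-Con (48 h) the difference was 1.53 (adjusted p = 0.256, limma) and without library a of sdAb#07.81 (48 h) 2.65 (adjusted p = 0.0662, limma).

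**Figure D4:**
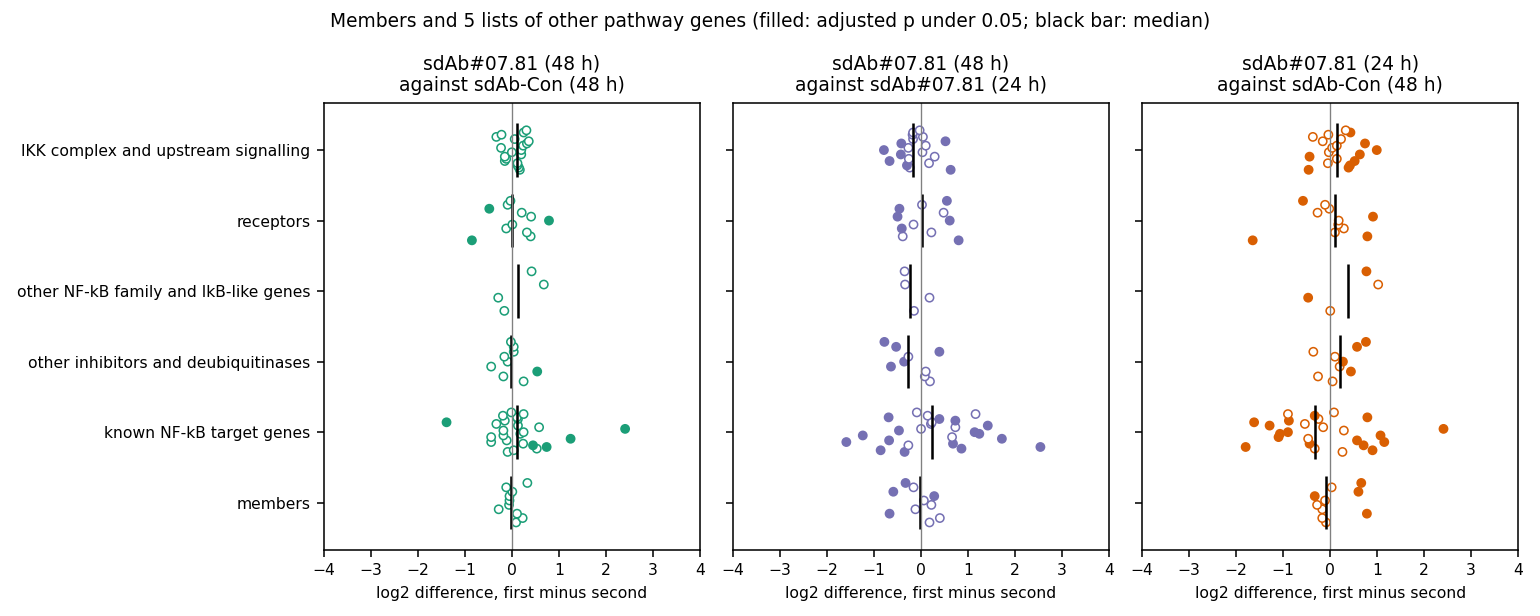
Log2 differences (horizontal axes, first group minus second) of the 10 members and of 5 lists of other pathway genes in the 3 contrasts; each circle is a gene, filled circles have an adjusted p below 0.05 in limma and black bars are medians. Target genes spread from -1.59 to 2.54 in 48 h against 24 h of sdAb#07.81, while the members lay between -0.67 and 0.40.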

How the data were processed

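Per the labels, RNA was extracted with Trizol and sequenced as paired-end reads. The submitters' processing notes name cutadapt 1.9.1, HISAT2 2.0.1 and HTSeq 0.6.1 and the build GRCh38.p14, a human assembly, although all gene identifiers are those of mouse genes. Coordinates of genes are therefore given as the tables list them, with no build, while promoter sequences and their coordinates come from RefSeq (GRCm38.p6). Whether counting used strand is not given in the sources used here.

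The authors deposited, for each gene in each of 2 tables, a signal value, the mean over 4 libraries of counts divided by size factors. Their fold changes, p-values and adjusted p-values are also in the tables and were not used. The printed means carry 15 digits, and the most frequent values are those of genes with a single read, which gave the size factor of each library. Genes with a single read in both tables showed that 2 libraries stand in both, and sdAb#07.81 (48 h) is the group both tables name. Whole reads per library were then found by lattice reduction for 28635 of 28712 genes. The other 77 have means above 10000 and were left out. The method was tested on simulated data. The replicate numbers of the labels could not be tied to libraries. Libraries of a group differed by more than sampling noise (mean chi-square per degree of freedom 8.76 to 11.7).

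Reads were fitted with limma 3.58.1 (R 4.3.3, voom weights, median-of-ratios size factors, 3 groups of 2 libraries). The test, two-sided, covered genes whose normalized count averaged 10 or more, with Benjamini-Hochberg adjustment over all tested genes and a threshold of 0.05. Transcript lengths came from GENCODE and covered 98.8% of tested genes. Alternatives were total-read and upper-quartile scaling, no minimum, a minimum of 100, log2(CPM + 1) with an intensity trend, only the 2 groups compared, a fold of at least 1.5, removal of the trend on length, GC content and mean count, and each library left out. Named genes of the pathway lists were at most the 2 called with the largest change in each direction per list and contrast, and any other gene is said to have been named after its values were seen. The 10 members and all lists were chosen with earlier results of these data known.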

Additional observations from a re-analysis of the deposited data

How the results depend on the processing

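No paired analysis was possible because the libraries recovered from the deposited means carry no replicate number. With 2 libraries a group, a call rests on few degrees of freedom, and the cause of each change given here was not tested. Between the antibodies at 48 h the count of members called was 0, and 1 (Tnfaip3) with upper-quartile scaling, a minimum mean of 100 or only the 2 groups compared, and 0 to 1 with a library left out. For sdAb#07.81 at 48 h against 24 h it was 4, 2 at a fold of at least 1.5 and 2 to 5 with a library left out (2 without library a of either sdAb#07.81 group). It was 3 with upper-quartile scaling, no minimum or only the 2 groups compared (each losing Nfkbiz), and 5 with total-read scaling (adding Ikbke). With the trend removed it was 4, with Ikbke in place of Tnfaip3. For sdAb#07.81 (24 h) against sdAb-Con (48 h) it was 4, and 3 to 4 with a library left out. There it was 5 with total-read scaling or only the 2 groups compared (both adding Nfkbia) or with the trend removed (adding Ikbke), and 3 with upper-quartile scaling or at a fold of at least 1.5 (both losing Nfkbiz). The split by direction over all genes moved with scaling too. In that contrast it was 3609 higher and 3500 lower, 4093 and 3015 with upper-quartile scaling, and 3308 and 3746 with total-read scaling. Between the antibodies at 48 h it was 890 higher and 490 lower, and 1170 and 310 with upper-quartile scaling. Over all genes, 1380 were called between the antibodies at 48 h, 255 with the trend on length, GC content and mean count removed, 555 without a minimum, 590 at a fold of at least 1.5, 2147 with only the 2 groups, and 217 to 2152 with a library left out. For 48 h against 24 h of sdAb#07.81 the count over all genes was 5978, 3674 at a fold of at least 1.5, 4324 to 5737 with a library left out and 5011 to 6073 under the other settings. For sdAb#07.81 (24 h) against sdAb-Con (48 h) it was 7109, 4552 at a fold of at least 1.5, 5058 to 6964 with a library left out and 5952 to 7108 under the other settings.

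Each difference that changed sign was of a member not called in that same contrast with all 6 libraries. Between the antibodies at 48 h, with the trend removed Nfkbia stood at 0.20 and Nfkbie at 0.07, and with upper-quartile scaling Nfkbie and Nfkbiz stood at 0.00. With a library left out, the ranges in that contrast were -0.08 to 0.09 for Rela, -0.19 to 0.06 for Nfkbia, -0.18 to 0.07 for Nfkbie and -0.02 to 0.19 for Birc3. For 48 h against 24 h they were -0.19 to 0.30 for Nfkbie and -0.09 to 0.42 for Birc3. For sdAb#07.81 (24 h) against sdAb-Con (48 h) they were -0.05 to 0.11 for Relb, -0.35 to 0.14 for Nfkbie, -0.33 to 0.18 for Birc3 and -0.47 to 0.16 for Ikbke. In the same contrast Relb stood at 0.00 with total-read scaling and Nfkbia at 0.06 with the trend removed. For genes outside the 10, only 46 differences of named genes were followed, not those of the lists' other genes, and 74 of their 632 alternative values lost a call, 1 gained one and 0 changed sign.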
